A study of Mus musculus with 22 samples.

Results

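The 10 genes described here belong to the matrix metalloproteinase (MMP) system, measured in mouse spinal cord. They are the proteases Mmp2, Mmp12, Mmp14, Mmp15, Mmp16, Mmp17 and Mmp24 and the tissue inhibitors Timp2, Timp3 and Timp4. These were picked by name, as 10 of the 21995 genes of the count table, with earlier results of these data known. RNA-seq libraries of whole spinal cord came from C57BL/6 mice in 4 groups. Aging was examined in 8 young (3 to 4 months) and 8 old (18 to 24 months) wild-type male mice, whose libraries were made with the KAPA HyperPrep kit. Amyotrophic lateral sclerosis (ALS) was examined in 3 G93a mice, which carry many copies of a mutant human SOD1 transgene driven by its own promoter, and in 3 wild-type controls, all labelled 5 to 6 months of age. Both of those groups held females and males in the same proportion and were prepared with the TruSeq kit, so kit, age, sex and experiment cannot be told apart between the aging and the ALS sets. The comparisons ask how aging and the ALS transgene each shift the expression of this enzyme system.

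The young and old libraries held between 5078092 and 9358055 counts and the control and G93a libraries between 9675610 and 13219797. A value of 3 counts thus stood for 0.591 or less per 1e+06 counts of the raw total in every library. CPM values below are counts scaled to a library size of 1e+06 after TMM correction. Mouse Sod1 was at 160 ± 6.56 CPM in controls and 310 ± 22.03 in G93a mice (SD, n = 3), and reads of the human transgene on the mouse row cannot be told apart from mouse Sod1. Markers of neurons, oligodendrocytes, astrocytes and microglia were all present. In these bulk libraries, fewer cells of a type and less RNA per cell cannot be told apart.

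MMPs are zinc-dependent endopeptidases that cleave matrix proteins, growth factor precursors and cell surface receptors. Most are made as inactive precursors, and a propeptide must be removed before they act. Mmp2 (gelatinase A) and Mmp12 (macrophage elastase) are secreted. Mmp14, Mmp15, Mmp16 and Mmp24 span the plasma membrane and Mmp17 is held by a lipid anchor. TIMPs block the active site of MMPs, but Timp2 also bridges Mmp14 and the Mmp2 precursor at the cell surface, so that it takes part in Mmp2 activation. In the nervous system these enzymes are known for work on perineuronal nets, myelin and the blood-spinal cord barrier.

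Inhibitor transcripts were far more abundant than protease transcripts in every group. On the FPKM scale, which divides by transcript length and so allows genes to be compared, Timp2 stood at 129 ± 3.46 in young mice, 153 ± 12.1 in old mice, 121 ± 0.519 in controls and 168 ± 16.7 in G93a mice (SD, n = 8, 8, 3 and 3). Timp3 followed at 32.7, 37.1, 33.9 and 46.4 FPKM, and Timp4 at 18.9, 20.4, 23.5 and 44.6. These ranges were separate in each group except that Timp3 and Timp4 overlapped in G93a mice and Timp4 overlapped Mmp15 in young and old mice. Among the proteases, Mmp15 led in young mice with 14.8 FPKM, followed by Mmp14 at 8.41, Mmp24 at 7.48 and Mmp17 at 5.65. Neighbours from Mmp14 to Mmp17 overlapped in range, as did Mmp2 at 2.35 and Mmp16 at 2.33. Mmp12 was last, at 0.061. In G93a mice the order of the proteases was different. Mmp12 came first at 14.3 FPKM, followed by Mmp14 at 11.5 and Mmp15 at 8.06, with overlapping ranges between neighbours. In old mice Mmp12 was at 3.97 FPKM and overlapped both Mmp17 and Mmp16.

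**Figure D1:**
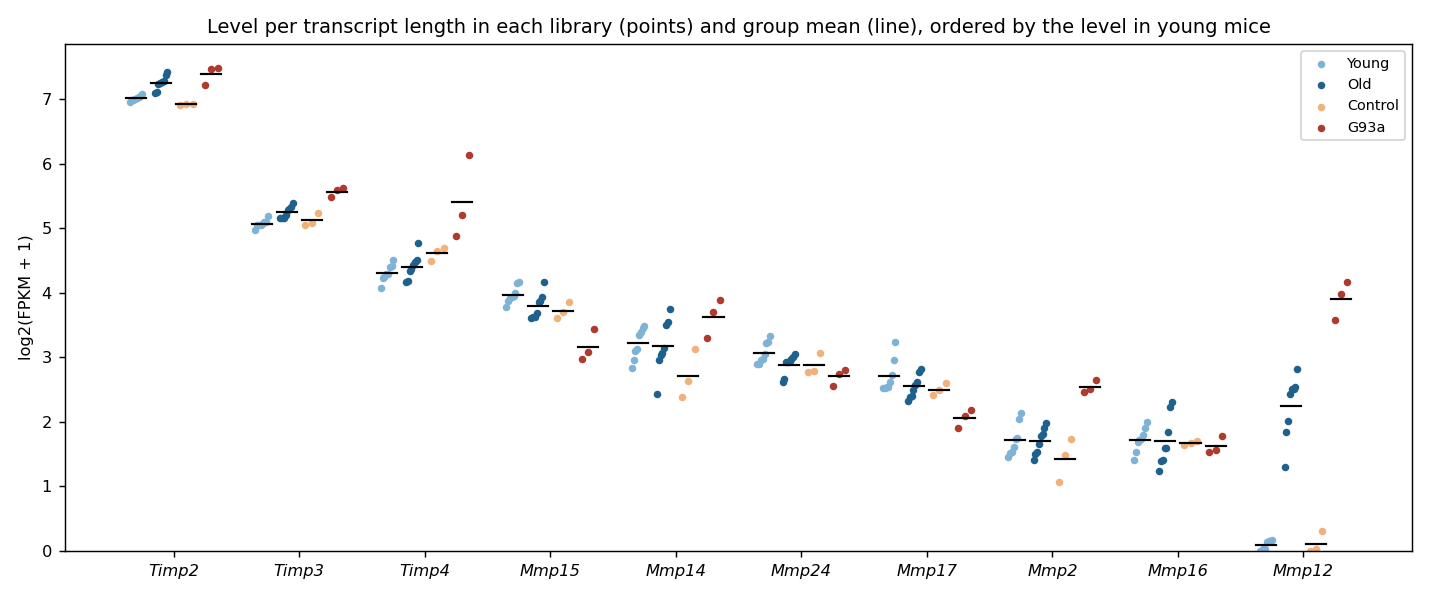
Levels of the 10 genes as log2(FPKM + 1), a scale that accounts for transcript length, with 1 point for each library, lines at group means and genes ordered by their level in young mice. Timp2 lies above all other genes in every group, and Mmp12 moves from the lowest level in young and control mice to that of the leading proteases in G93a mice.

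Aging raised 3 of the 10 genes (Mmp12, Timp2 and Timp3) and lowered 2 (Mmp15 and Mmp24), and the other 5 did not pass the test. Over all 13647 genes tested in that comparison, 13.5% were called higher and 12.9% lower at an adjusted p under 0.05, and 3 and 2 of 10 genes are not far from those shares. The study's rule also asks for a log2 fold change beyond 1. Under it 1 member remained higher in old mice (Mmp12), against 2.18% of all genes, and 0 remained lower, against 0.044%. In G93a mice 6 members were higher (Mmp2, Mmp12, Mmp14, Timp2, Timp3 and Timp4) and 3 lower (Mmp15, Mmp17 and Mmp24), beside 18.4% and 15.5% of 14386 genes. With the fold rule 2 remained higher (Mmp12 and Mmp2), where 8.5% of all genes did, and 0 remained lower, where 1.2% did. All 10 members passed the filter on low counts in both comparisons. Mmp12 passed only through its old and G93a libraries, since every young and control library held fewer than the minimum of 10 counts. Its entry into the test thus depended on the groups where it is high. With no filter it was called higher in both comparisons as well. The median log2 fold change over the members was -0.02 in aging and 0.38 in G93a, beside -0.003 and 0.003 over all genes tested.

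**Figure D2:**
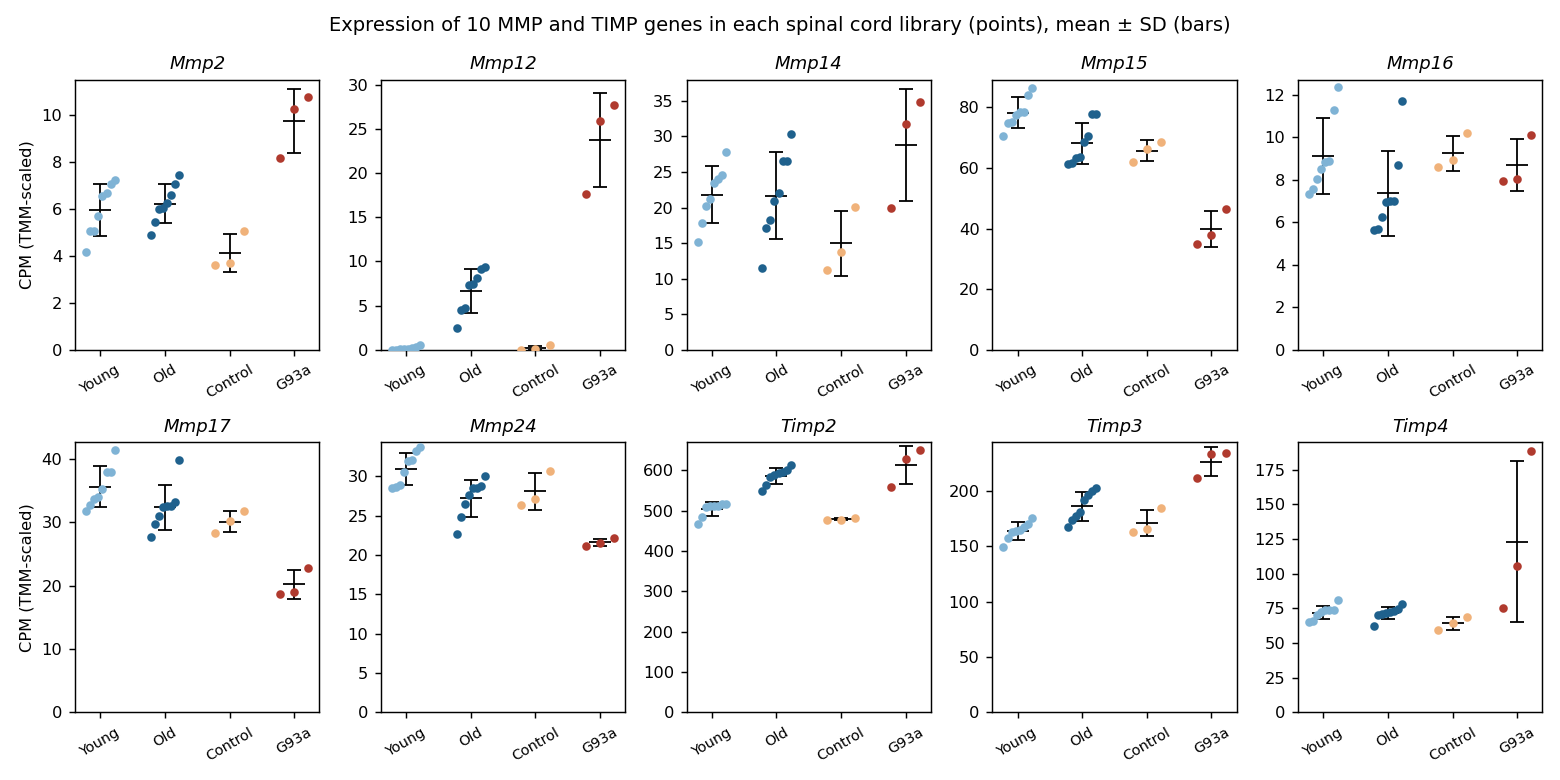
CPM of each gene in every library, as points, with the group mean and SD as bars, in young (n = 8), old (n = 8), control (n = 3) and G93a (n = 3) mice; each panel has its own axis from 0. Mmp12 and Timp2 of old mice lie wholly above those of young mice, and 1 of the 3 G93a points for Timp4 stands far above the others.

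Mmp12, which breaks down elastin and is known as a product of macrophages, showed the largest change of the members in both comparisons. Its counts in young libraries ran from 0 to 4 and in old libraries from 16 to 78, and every old library exceeded every young one. Summed over libraries, 403 counts in old mice against 10 in young mice gave a ratio of 42.8 per total count (95% exact interval 23.0 to 89.9, counting error only). The fitted log2 fold change was 5.25 ± 0.39 (SE, edgeR adjusted p = 7.97e-10). Controls held 1, 6 and 0 counts of Mmp12, and G93a libraries held 306, 175 and 309. That is a ratio of 125.1 (60.4 to 312.1) and a fitted log2 fold change of 6.83 ± 0.48 (edgeR adjusted p = 8.97e-05). Both SE values were derived from the test statistic and span less than the exact counting intervals, so they understate the uncertainty. Since so few counts stand in the reference groups, the size of the change was less certain than its presence. Without control library d4441, which held 6 of the 7 control counts, the fitted value was 8.79. On the log2(FPKM + 1) scale, which damps low levels, the differences were 2.16 in aging and 3.80 in G93a mice.

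RefSeq places 2 start sites for Mmp12 on GRCm38.p6. The 120 bases before each are shown because Mmp12 changed most of the 10 genes and its alternative starts differ in a motif. Capitals mark TGANTCA, the AP-1 motif, searched on both strands (the motif equals its own reverse complement).
Mmp12, upstream start, chr9:7344277-7344396, plus strand: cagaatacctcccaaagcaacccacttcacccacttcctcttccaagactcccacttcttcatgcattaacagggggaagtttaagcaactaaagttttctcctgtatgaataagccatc
Mmp12, downstream start, chr9:7347254-7347373, plus strand: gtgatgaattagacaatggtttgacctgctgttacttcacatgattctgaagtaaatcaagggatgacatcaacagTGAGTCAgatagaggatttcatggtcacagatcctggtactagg
The match began 44 bases before the downstream start, and none lay in the window of the upstream start. Promoter windows of 300 bases (250 before to 50 after the start) were at hand for 7 of the 10 members, in 8 entries; Mmp2, Mmp16 and Mmp17 had none. TGANTCA was in 1 of these 8 windows and in 7.81% of 32851 mouse promoter windows. The E-box CACGTG, which likewise equals its reverse complement, was in 0 of the 8 and in 7.15% of all. GC content was 38.7% and 40.7% for the Mmp12 windows and 80.0% for Mmp24, beside a median of 52.7% over all windows. A match says only that the letters are there, and gene counts do not tell which start was used.

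Mmp2, the gelatinase that digests type IV collagen of basement membranes, rose in G93a mice. Controls were at 5.03, 3.70 and 3.61 CPM and G93a libraries at 10.3, 8.16 and 10.7, and all G93a libraries lay above all controls. The log2 fold change was 1.25 ± 0.21 (SE, edgeR adjusted p = 0.00333), and the call was kept without any one library, with values from 1.16 to 1.41. In aging the lowest, median and highest libraries were 4.15, 6.12 and 7.21 CPM in young and 4.90, 6.14 and 7.44 in old mice. The groups overlapped almost fully, and the log2 fold change of 0.07 ± 0.13 did not pass the test (edgeR adjusted p = 0.737).

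Mmp14, the membrane enzyme that activates the Mmp2 precursor, was likewise called higher in G93a mice, with less certainty. Controls were at 20.02, 11.2 and 13.7 CPM and G93a libraries at 31.7, 19.9 and 34.8, so the lowest G93a library lay just under the highest control. The log2 fold change was 0.95 ± 0.25 (SE, edgeR adjusted p = 0.0189). It lost its call without control library d4441 (adjusted p = 0.0758), control library d4444 (0.0747) or G93a library d4443 (0.0861). In aging, Mmp14 ran from 15.2 to 27.8 CPM in young mice (median 22.3) and from 11.4 to 30.3 in old mice (median 21.5), with a log2 fold change of -0.03 ± 0.15 (edgeR adjusted p = 0.921).

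Other membrane proteases were lower or not called. Mmp15, closely related to Mmp14 and the most abundant of the 7 proteases in young cords, stood at 68.7, 61.9 and 66.3 CPM in controls and 34.9, 46.5 and 38.0 in G93a mice. The groups were separate, with a log2 fold change of -0.72 ± 0.12 (SE, edgeR adjusted p = 0.00273). In aging, Mmp15 had a lowest, median and highest value of 70.6, 78.0 and 86.5 CPM in young and 61.5, 66.2 and 78.0 in old mice. These ranges overlapped, and the change of -0.20 ± 0.06 was small but called (edgeR adjusted p = 0.0131). With limma on log2(FPKM + 1) it was not (adjusted p = 0.196).

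Mmp17, the lipid-anchored enzyme, was at 28.4, 30.1 and 31.8 CPM in controls and 18.7, 22.8 and 19.1 in G93a mice. All G93a libraries were lower, with a log2 fold change of -0.58 ± 0.11 (SE, edgeR adjusted p = 0.00643), though limma on log2(FPKM + 1) gave an adjusted p of 0.0623. Its aging change was -0.14 ± 0.07 (edgeR adjusted p = 0.134), with medians of 34.6 CPM in young and 32.5 in old mice. One old library, d149036, was at 39.9 CPM, and without it the change was -0.19 and called (adjusted p = 0.0351). That was the only 1 of 22 alternatives that called it.

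Mmp24, an enzyme found mainly in nervous tissue, was at 26.4, 27.1 and 30.7 CPM in controls and 21.2, 21.6 and 22.1 in G93a mice. The groups were separate and the G93a libraries close to each other, with a log2 fold change of -0.38 ± 0.10 (SE, edgeR adjusted p = 0.0227). That call was lost without control library d4441 (adjusted p = 0.0613) or d4444 (0.0793), without G93a library d4435 (0.0686) or d4443 (0.0732), and with limma on log2(FPKM + 1) (0.419). In aging the medians were 31.2 CPM in young and 28.0 in old mice, with ranges that overlapped. The change of -0.19 ± 0.06 (edgeR adjusted p = 0.0320) lost its call without any one of young libraries d149012, d149017, d149018 and d149020 or old libraries d149027 and d149035, with adjusted p-values up to 0.0645. Limma on log2(FPKM + 1) also missed it (adjusted p = 0.176).

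Mmp16 was the member that no comparison called. Controls were at 8.92, 10.2 and 8.61 CPM and G93a libraries at 8.05, 7.96 and 10.1, which overlap, with a log2 fold change of -0.08 ± 0.17 (SE, edgeR adjusted p = 0.730). Its aging medians were 8.66 CPM in young and 6.96 in old mice. The change of -0.32 ± 0.15 had an edgeR adjusted p of 0.116. This fell to 0.0118, with a change of -0.44, when old library d149034, the highest of its group at 11.7 CPM, was left out. That was the only 1 of 22 alternatives that called it. With limma on log2(FPKM + 1) the change was -0.02 (adjusted p = 0.957), so the fall was not seen on that scale.

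Timp2 and Timp3 rose in both comparisons, by less than Mmp12 but from much higher levels. Timp2 was at 468, 511 and 517 CPM as lowest, median and highest in young mice and at 550, 591 and 613 in old mice. Every old library was above every young one, a log2 fold change of 0.22 ± 0.04 (SE, edgeR adjusted p = 7.79e-05). In controls it was at 481, 478 and 477 CPM and in G93a mice at 649, 559 and 628, again without overlap, and the log2 fold change was 0.36 ± 0.09 (edgeR adjusted p = 0.0175). Leaving out control library d4438, d4441 or d4444 gave adjusted p-values of 0.0691, 0.0762 and 0.0697, and leaving out G93a library d4443 gave 0.0721, while the change stayed between 0.32 and 0.42.

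Timp3, which binds to the matrix and also inhibits ADAM and ADAMTS proteases, ran from 149 to 175 CPM in young mice (median 164) and from 168 to 202 in old mice (median 186). The ranges overlapped and the log2 fold change was 0.18 ± 0.05 (SE, edgeR adjusted p = 0.00424). Controls were at 166, 184 and 163 CPM and G93a libraries at 233, 211 and 234. These were separate, with a log2 fold change of 0.41 ± 0.09 (edgeR adjusted p = 0.0105), and without control library d4444 the adjusted p was 0.0515.

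Timp4, an inhibitor with high expression in brain and heart, was called only in the G93a comparison. It was at 59.0, 68.9 and 64.4 CPM in controls and 188, 75.5 and 106 in G93a mice, with all G93a libraries higher and widely spread. The log2 fold change was 0.94 ± 0.28 (SE, edgeR adjusted p = 0.0289). The library at 188 CPM was d4435, and without it the log2 fold change was 0.51 and still called (adjusted p = 0.0312). The call was lost without control library d4438 (0.0980), d4441 (0.0758) or d4444 (0.0901), without G93a library d4443 (0.0613), and with limma on log2(FPKM + 1) (0.107). In aging the medians were 73.0 and 72.0 CPM in young and old mice, and the log2 fold change of -0.004 ± 0.05 was not called (edgeR adjusted p = 0.966).

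**Figure D3:**
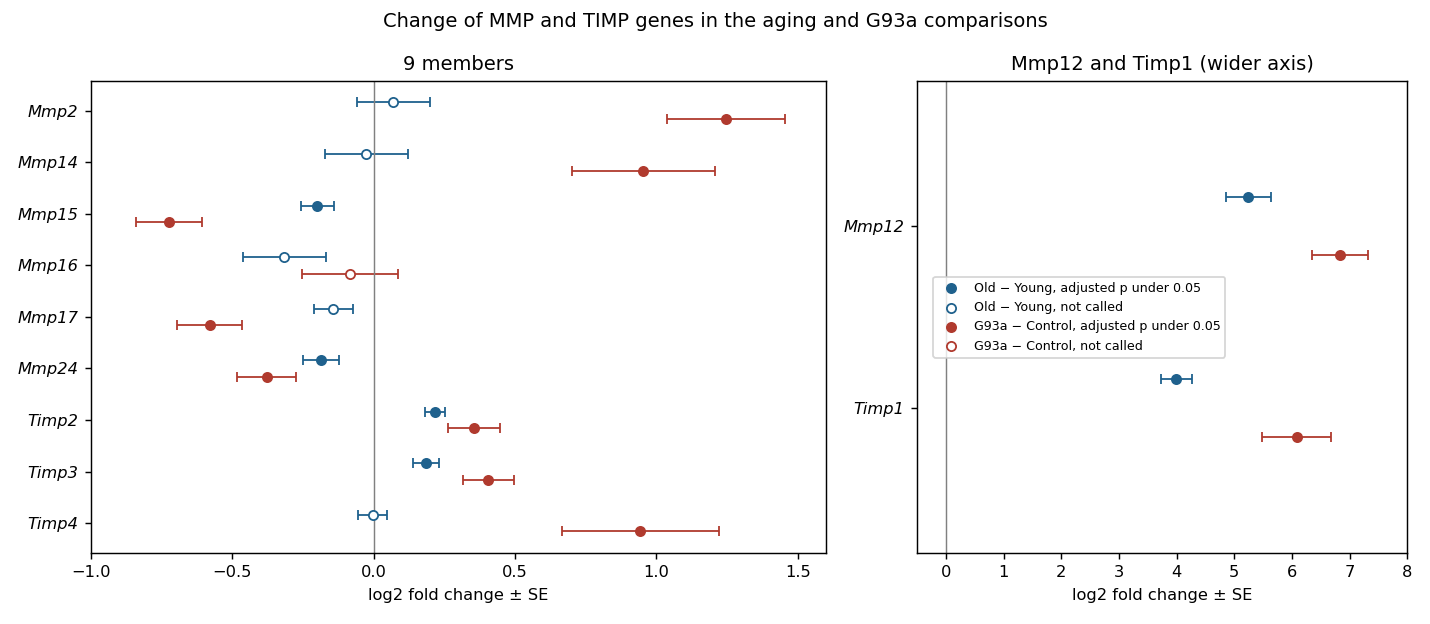
Log2 fold change ± SE from edgeR for each member in old against young mice (blue) and G93a against control mice (red), with filled points where the adjusted p was under 0.05; Mmp12 is drawn with Timp1, an inhibitor outside the 10 genes, on a wider axis. Mmp2, Mmp14 and Timp4 lie near 0 in aging and near 1 in G93a mice, whereas Timp2 and Timp3 are above 0 in both.

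Of the 10 members, 5 had a called difference between the changes in the 2 settings. The difference, G93a minus control less old minus young, was tested as 1 term in a fit of all 22 libraries, where 25.8% of 14502 genes were called. That fit shares its estimate of spread over all groups, and most of its libraries are from the aging set. Its adjusted p-values may therefore be too small for the spread of G93a and control libraries. Kit, sex and experiment cannot be told apart from this term. The difference was positive for Mmp2 (1.15 on the log2 scale, edgeR adjusted p = 0.000728), Mmp14 (0.95, 0.0212) and Timp4 (0.92, 0.00171), and negative for Mmp15 (-0.55, 0.00140) and Mmp17 (-0.47, 0.0103). Thus 3 genes with no called aging change were higher in the G93a set by a difference that passed the test, and Mmp15 fell further there than in aging. For Mmp12 the difference was 1.51 (adjusted p = 0.315), and the reference counts near 0 left it wide, between 0.90 and 3.40 when single libraries were left out. Timp2 and Timp3 had differences of 0.11 and 0.19 that did not pass (0.295 and 0.116). Without G93a library d4435, 3 members were called (Mmp2, Mmp15 and Timp4), and the Timp4 difference was 0.49. The Mmp14 call was also lost without control library d4441 or d4444 or G93a library d4443, with adjusted p-values up to 0.0863.

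Added up, the 7 proteases gave 41.0 ± 3.64 FPKM in young, 41.4 ± 4.53 in old, 33.1 ± 3.49 in control and 49.5 ± 4.64 in G93a mice (SD). The 3 inhibitors gave 180.3 ± 3.92, 210.2 ± 14.3, 178 ± 3.20 and 259 ± 36.9. As a description, these protease transcripts thus amounted to 22.8% of these inhibitor transcripts in young mice and 19.7% in old mice. The shares were 18.6% in controls and 19.3% in G93a mice. Timp1 and the other MMP genes were outside these sums. With Timp1 added, the inhibitor sum was 180.6 ± 3.97 FPKM in young and 216.4 ± 15.4 in old mice. It was 178.7 ± 3.28 in control and 295.4 ± 55.0 in G93a mice. Timp1 thus added far more in G93a mice than in controls. The shares without it do not settle whether the balance was higher or lower in G93a mice. The make-up of the protease sum differed between groups. Mmp12 took 0.153% of it in young, 9.49% in old, 0.285% in control and 28.6% in G93a mice, and Mmp15 took 36.0%, 31.6%, 37.1% and 16.5%. Transcript levels say nothing of how much enzyme was active.

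Among the other MMP and TIMP genes, Timp1, the inducible inhibitor, stood out. It held from 1 to 5 counts in young and from 22 to 66 in old libraries, with a log2 fold change of 3.99 ± 0.27 (SE, edgeR adjusted p = 1.41e-10). Controls were at 0.190, 0.421 and 0.692 CPM and G93a libraries at 43.2, 12.4 and 37.5, a log2 fold change of 6.08 ± 0.61 (edgeR adjusted p = 0.000282). Mmp19 also rose in both, by 0.90 in aging and 2.80 in G93a mice (edgeR adjusted p = 0.00475 and 0.00105). Mmp9, the second gelatinase, fell by 1.59 on the log2 scale in G93a mice, from 12.9, 15.2 and 11.6 CPM to 3.22, 6.34 and 3.76 (edgeR adjusted p = 0.00269), while its aging value of -0.22 was not called (0.114). So the gelatinase genes Mmp2 and Mmp9 moved in opposite directions in the G93a set. Mmp11 was called in aging (0.78, adjusted p = 0.00337) and not in G93a mice (1.05, 0.0656), and Mmp28 was called in neither. Of 17 such genes 1 (Mmp1a) was not in the table, 5 were tested in aging and 6 in G93a, among them Mmp23, which was not called. Mmp1b, Mmp3, Mmp7, Mmp8, Mmp10, Mmp13, Mmp20, Mmp21 and Mmp27 had at most 5 counts in any library and Mmp25 at most 13. They did not pass the filter on low counts in either comparison, so changes in them were not tested.

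Of the related ADAM and ADAMTS genes, not all of which encode active proteases, 1 of 19 tested was higher and 4 were lower in aging. Over all genes 13.5% and 12.9% were. In G93a mice 8 of 20 were higher and 4 lower, beside 18.4% and 15.5% of all genes. Adam19 (-0.40 and -0.91, edgeR adjusted p = 3.39e-05 and 0.00175) and Adam22 (-0.21 and -0.46, 0.000127 and 0.0271) were lower in both comparisons. Adam17, the sheddase that releases TNF, was at 0.01 in aging (0.940) and 0.87 in G93a mice (0.00260), and Adamts5, an aggrecanase, at -0.08 (0.624) and 0.83 (0.00916). Adam23, a neuronal adhesion protein, fell by 1.04 in G93a mice (0.00505). Adamts4 and Adamts10 were lower in aging, at -0.23 (0.00460) and -0.30 (0.0220), and Adamts10 was higher in G93a mice at 0.38 (0.0327). The list medians were -0.08 in aging and 0.30 in G93a mice.

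Of genes that activate, inhibit or clear MMPs, 7 of 14 tested were higher in aging and 8 of 15 in G93a mice, beside 13.5% and 18.4% of all genes, and 0 were called lower in either. The others did not pass the test, and 10 of 14 and 11 of 15 had a log2 fold change above 0. Plau and Plat, the plasminogen activators, were at 2.42 and 0.68 in aging (edgeR adjusted p = 5.62e-08 and 2.06e-05) and at 4.33 and 1.73 in G93a mice (8.14e-05 and 0.000445). Cd44, a hyaluronan receptor that holds MMPs at the cell surface, was at 1.005 and 2.73 (2.22e-09 and 0.000228), and A2m, a broad protease inhibitor, at 0.64 and 2.79 (0.000106 and 0.000339). The list medians were 0.15 and 0.57. The called activator genes and the called inhibitor genes of this list moved the same way.

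Among 20 matrix genes that MMPs and their relatives cleave, 3 were higher and 8 lower in aging, beside 13.5% and 12.9% of all genes. In G93a mice 9 were higher and 4 lower, beside 18.4% and 15.5%. Spp1 (osteopontin) was at 1.08 and 2.46 in aging and G93a mice (edgeR adjusted p = 3.28e-08 and 0.000199), Fn1 (fibronectin) at 0.72 and 1.501 (1.20e-06 and 0.00150), and Tnc (tenascin-C) at 0.57 and 1.96 (0.0143 and 0.000627). Acan (aggrecan), the core of perineuronal nets, was lower in both, at -0.27 (0.00594) and -1.37 (0.00145), as was Nid1, a basement membrane linker, at -0.85 (2.45e-05) and -0.58 (0.0181). Tnr, a net component, was lower in aging at -0.49 (3.75e-06) and at 0.22 in G93a mice (0.110). The list medians were -0.16 and 0.47.

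**Figure D4:**
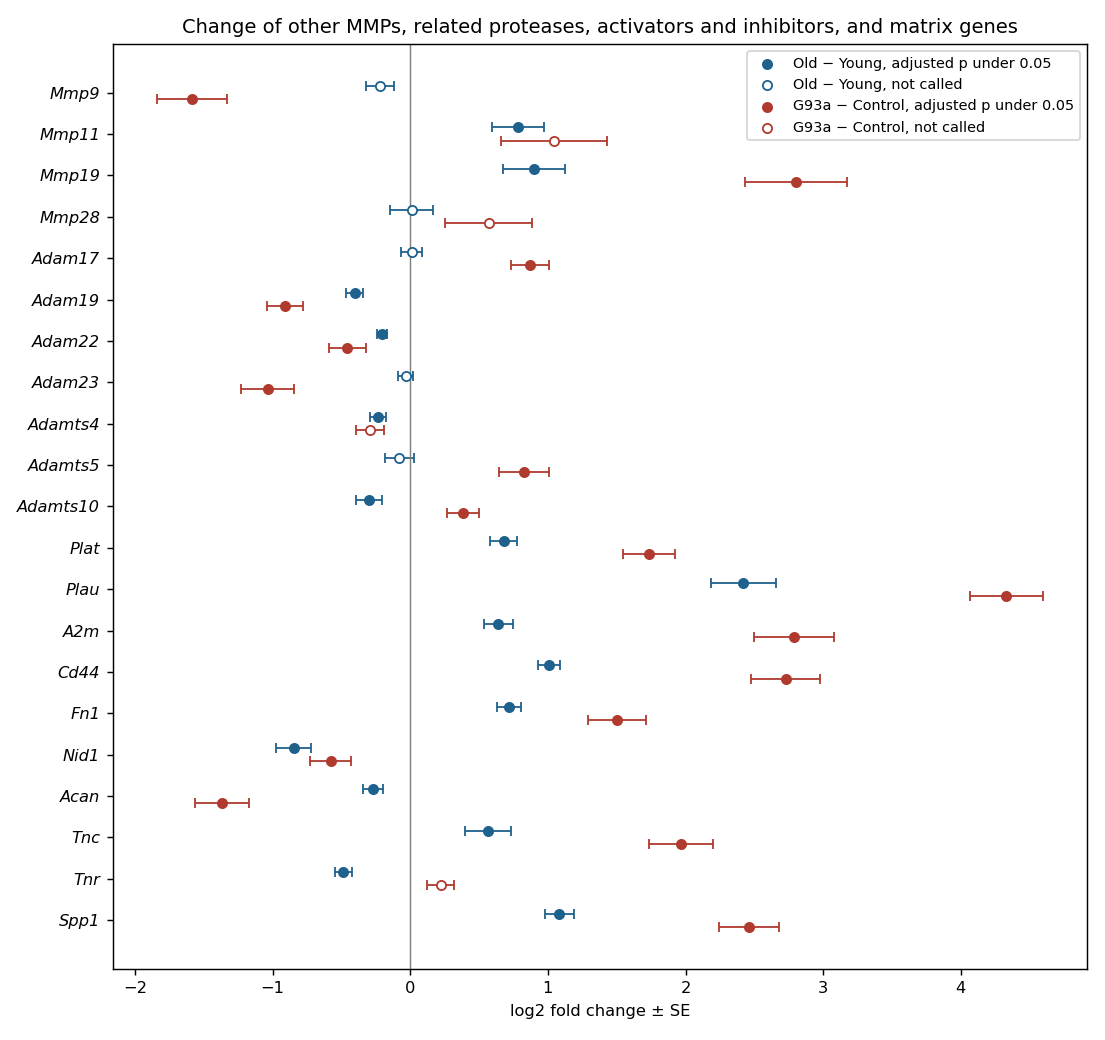
Log2 fold change ± SE from edgeR in old against young (blue) and G93a against control mice (red) for 21 genes. They are the 4 other MMPs tested in both comparisons and genes of the ADAM and ADAMTS, activator and matrix lists. From each list, genes with the smallest adjusted p-values are shown. Filled points have an adjusted p under 0.05. Plau, A2m, Cd44 and Spp1 lie to the right of 0 in both comparisons, and Mmp9, Adam23 and Acan lie furthest to the left in G93a mice.

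Markers of cell types moved beside these genes. Over all genes tested, 13.5% were called higher and 12.9% lower in aging, and 18.4% and 15.5% in G93a mice. Of 10 microglia and macrophage markers, 9 were higher in aging and 8 in G93a mice, and their summed level ran from 336 to 377 CPM in young, 549 to 903 in old, 348 to 418 in control and 1354 to 2431 in G93a libraries. Cd68, a lysosomal protein of phagocytes, was at 3.20 and 4.45 on the log2 scale, well above the list medians of 1.08 and 2.19. Mmp12 and Timp1 moved with this list, and its part in their change was not tested. Of 8 astrocyte markers, 5 were higher and 1 lower in aging and 6 were higher in G93a mice, with sums of 6460 to 7120 CPM in young, 7510 to 8284 in old, 6067 to 6683 in control and 11666 to 18179 in G93a libraries. Of 9 neuron markers, 1 was higher and 3 lower in aging and 7 were lower in G93a mice, where the sum ran from 2924 to 4879 CPM against 6959 to 7201 in controls. Of 6 motor neuron markers 4 were lower in G93a mice and 0 were called in aging. Of 6 oligodendrocyte precursor markers, 3 were lower in aging and 3 higher in G93a mice, with sums of 216 to 249 CPM in young, 168 to 203 in old, 231 to 253 in control and 283 to 371 in G93a libraries. The 5 Schwann cell and nerve root markers reported here summed to 115 to 132 CPM in young, 133 to 171 in old, 106 to 122 in control and 139 to 245 in G93a libraries. Most of these markers did not pass the filter on low counts in aging, and not all passed it in the G93a comparison. Library d4435, the highest for Timp4, was the one at 245. It also led the G93a libraries in meningeal and fibroblast markers, at 134 CPM against 71.8 and 90.5, where controls ran from 65.1 to 74.9. Of these 8 markers, 0 were called in aging, where 7 were tested, and 1 was higher in G93a mice. The part of root and meningeal markers in the Timp4 level of library d4435 was not tested. Of the remaining lists, oligodendrocyte markers had 1 of 8 higher and 3 lower in aging and 0 called in G93a mice. Endothelial and mural markers were near the shares over all genes, with 1 of 9 lower in aging and 2 higher and 1 lower in G93a. The part of these shifts in the lower Mmp15, Mmp17, Mmp24 and Mmp9 was not tested. G93a library d4437, the highest of its group in the neuron sum and the lowest in the microglia and astrocyte sums, had the smallest departure from controls for Mmp2, Mmp12, Mmp14, Mmp15, Mmp17, Timp2, Timp3 and Timp4.

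Within groups the members did not vary as one. Over 22 libraries, deviations of log2 CPM from the group mean gave 45 pairwise correlations with a median Pearson r of -0.04. The highest were 0.70 for Mmp15 with Mmp17 and 0.68 for Mmp14 with Timp2, and the lowest was -0.65 for Mmp15 with Timp3. The genes most like Mmp12 by this measure were 1110012L19Rik (0.78), Mapk14 (0.75), Map2k1 (0.75), Cyba (0.75) and Ccl6 (0.74). They are the highest of all genes tested in both comparisons. For the other members the highest such value ran from 0.78 (Mmp2 with Sidt2) to 0.91 (Timp4 with Nf2). Values of this size were thus not particular to Mmp12. Changes are given here only for Cyba and Ccl6, which ranked below the others. Cyba, a subunit of the phagocyte oxidase, was also higher in old and in G93a mice, at 2.17 and 3.61 on the log2 scale. So was Ccl6, a chemokine, at 1.93 and 4.36 (edgeR adjusted p for both genes from 2.32e-08 to 0.000291). These are descriptions over libraries that share depth and composition, and Mmp12 deviations in young and control mice rest on a handful of counts.

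Positions are from GENCODE M21 on GRCm38. Mmp12 is at chr9:7344381-7369499, Timp2 at chr11:118301069-118355740, Timp3 at chr10:86300372-86349506 and Timp4 at chr6:115241892-115252205. Timp3 lies within Syn3 and Timp4 within Syn2, both on the opposite strand, and share 1733 and 90 exonic bases with their hosts (21.3% and 1.53% of their own). The hosts encode synaptic vesicle proteins. Syn3 was lower in both comparisons, where Timp3 was higher, at -0.43 in aging and -0.98 in G93a mice (edgeR adjusted p = 0.00176 and 0.0102). Syn2 was at -0.07 (0.205) and -0.52 (0.0182). Syn1, host of Timp1, was at -0.02 (0.867) and -0.65 (0.00740). Mmp24 shares 637 exonic bases (13.6%) with BC029722 on the opposite strand, which had a median of 420 counts in young and 730 in control libraries. Whether counting used strand is not given in the sources used here, so reads of these shared bases cannot be told apart.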

How the data were processed

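Whole spinal cord RNA of 22 mice was sequenced by the authors, aligned with STAR to mm10 and quantified with RSEM on Ensembl 88. The authors deposited unnormalized expected counts from RSEM, held as whole numbers so that rounding changed nothing, and a second table of log2 values, log2(FPKM + 1). Columns name the group and a library but no replicate number. Nothing states that a library pools animals, and p-values measure the spread between libraries.

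Genes were filtered with filterByExpr (minimum count 10, minimum total 15), scaled by TMM and tested with edgeR 4.0.16 (quasi-likelihood test, Benjamini-Hochberg adjustment over all genes, threshold 0.05) in R 4.3.3, once for each comparison and once over all 22 libraries for the difference between them. Each SE of a log2 fold change was its absolute value divided by the square root of the F statistic of its test. It is not a separate estimate from the fit and can be too small for genes with few counts. The procedure was tested on simulated data. FPKM served to compare levels between genes, to sum proteases and inhibitors, and, as log2(FPKM + 1), for the limma alternative. Alternatives were DESeq2 1.42.0, RLE factors, other count filters, limma 3.58.1 on log2(FPKM + 1), 1 fit for all libraries, the added log2 fold change limit of 1, and each library left out. Libraries of a group were compared pairwise and none was a copy of another.

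The members and gene lists were chosen with earlier results of these data known. Named genes are the members, all other Mmp and Timp genes, up to 4 called genes with the smallest adjusted p-values per list and comparison, the synapsin hosts of Timp genes, and the 5 genes most like Mmp12. Other genes named, including Sod1, Cd68 and BC029722, were chosen after their values were seen. Some genes are not reported here. Protein sequences were not used here.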

Additional observations from a re-analysis of the deposited data

Results flagged for a closer look

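Mmp17 in old mice had 1 library apart from the other 7. Library d149036 was at 39.9 CPM, where the next highest was at 33.2 and the lowest at 27.7, so its gap to the nearest library was 0.549 of the range, above the 95% critical value for 8 libraries. The young and old groups of all 10 members were examined in this way, 20 groups in all, and 1 was flagged. Chance alone flags about 1 in 20.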

How the results depend on the processing

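No paired analysis was possible because the columns carry a library name and no replicate number. No called value changed sign under the alternatives run. In aging, 3 members were higher and 2 lower; adding the log2 fold change limit left 1 and 0, and limma on log2(FPKM + 1) left 0 lower. Leaving out single libraries gave 3 higher throughout and from 1 to 3 lower. In G93a mice, 6 were higher and 3 lower; the fold limit left 2 and 0, and limma left 1 lower (Mmp15). Leaving out single libraries gave from 2 to 6 higher and from 2 to 3 lower, with 2 higher without control library d4444, and 3 higher without control library d4441 or G93a library d4443; arms of 2 libraries remained in these fits. The count of members whose change differed between the comparisons ran from 3 to 6 around a value of 5, with 3 without G93a library d4435. A filter of at least 10 counts in every library removed Mmp12 and so left 2 and 5 members higher. DESeq2, RLE factors and no filter gave the same counts of calls as the edgeR fit. The cause of the other lost calls was not tested. Mmp2 and Mmp12 kept their G93a call under all alternatives run in which they were tested, and Mmp15 under all of those but the fold limit. With 3 libraries a group and effects of 0.36 to 0.95 in log2, the G93a calls for Timp2, Timp4, Mmp14 and Mmp24 lie near the threshold.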
